A study of Mus musculus with 6 samples.

Results

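The 31 genes described here encode enzymes of cholesterol synthesis, the sterol-sensing SREBP system, the lysosomal proteins that release cholesterol taken up with lipoproteins, and the LXR and efflux arm that removes or converts it. They were chosen by gene symbol, though with earlier results of these data known. All 31 were found among the 38926 symbols of the count tables and among the 16706 genes with enough reads to be tested. By role they are 18 synthesis enzymes, 5 SREBP regulators, 3 genes of lysosomal export and esterification, and 5 genes of the LXR and efflux arm. Whole dorsal root ganglia of lumbar levels 3, 4 and 5 on the side of the treated paws came from wild type C57BL/6 female mice aged 8 to 10 weeks. The 3 vehicle and the 3 vincristine samples were each a pool of ganglia from 4 animals, so spread between samples is spread between pools. Vincristine, a chemotherapy drug that binds tubulin and can damage peripheral nerves, was given into the paw to a cumulative 40 µg per the labels. The table names give 10 µg instead and number vehicle replicate 3 as 4; the labels were followed.

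Cells make cholesterol from acetyl-CoA by way of mevalonate, farnesyl diphosphate, squalene and lanosterol. When sterols are scarce, the escort protein SCAP carries SREBP to the Golgi, where it is cut and released to switch on the synthesis genes; the INSIG proteins hold SCAP back when sterols are plentiful. Oxysterols made from excess cholesterol activate the LXR nuclear receptors, which raise the membrane exporters ABCA1 and ABCG1. In peripheral nerve, cholesterol is a main lipid of myelin, and both Schwann cells and neurons make it.

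Read depth ran from 12374331 to 26346304 reads in genes per library, the lowest in vincristine replicate 1. That library stood apart. The counter assigned 24.8% of its tallied alignments to no feature, against 14.8% to 17.0% in the other 5. Its limma sample quality weight was 0.194 against 0.849 to 2.66. Sensory neuron markers summed to 10720 to 13984 CPM (read counts scaled to library size, with TMM factors) in vehicle, and to 4866, 10410 and 12496 CPM with vincristine replicates 1, 2 and 3. Macrophage markers summed to 1037 to 1317 CPM in vehicle and to 2973, 1574 and 1687 CPM in the same vincristine order. Neutrophil markers ran from 873 to 1509 CPM in vehicle and 2744 to 8294 CPM with vincristine, and red cell markers from 3037 to 4631 and 5632 to 13929 CPM. Sums of myelinating Schwann cell markers overlapped between groups, at 13675 to 19273 CPM in vehicle and 12667 to 17583 CPM with vincristine, as did those of adipocytes (56.8 to 189 and 103 to 289 CPM), fibroblasts (5617 to 9757 and 4474 to 9318 CPM) and endothelium (424 to 501 and 376 to 641 CPM). Satellite glia markers were at 1671 to 1850 CPM in vehicle and 1840 to 2018 CPM with vincristine. Every one of the 17 neuron, 16 Schwann cell, 13 satellite glia and 19 macrophage markers was at 1 CPM or more in all 6 libraries. In whole ganglia, fewer cells of a type and less RNA per cell cannot be told apart.

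The promoters of 6 synthesis genes are shown because these are the synthesis genes whose vincristine libraries all lay below the vehicle libraries. Each line gives bases -150 to -1 before the transcription start in RefSeq (GRCm38.p6), 5′ to 3′ on the gene's strand, with capitals on matches to TCACNCCAC (the core of a sterol regulatory element, where SREBP binds) or to CCAAT, read as ATTGG on the other strand (the box bound by NF-Y, a partner of SREBP). RefSeq starts were used; the GENCODE gene begins further upstream for Idi1, Lss and Cyp51, inside the stretch shown, and for Tm7sf2 and Sc4mol, before it. The stretches lie at chr13:119690201-119690350 (plus strand, Hmgcs1), chr13:8885456-8885605 (plus, Idi1), chr10:76531455-76531604 (plus, Lss), chr5:4104698-4104847 (minus, Cyp51), chr19:6067851-6068000 (minus, Tm7sf2) and chr8:64733579-64733728 (minus, Sc4mol, now named Msmo1).
Hmgcs1: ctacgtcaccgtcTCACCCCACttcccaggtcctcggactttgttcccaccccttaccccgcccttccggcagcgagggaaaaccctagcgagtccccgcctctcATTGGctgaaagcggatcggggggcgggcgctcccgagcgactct
Idi1: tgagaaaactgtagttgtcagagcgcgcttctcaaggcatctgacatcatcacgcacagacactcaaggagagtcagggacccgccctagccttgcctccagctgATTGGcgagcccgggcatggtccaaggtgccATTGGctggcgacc
Lss: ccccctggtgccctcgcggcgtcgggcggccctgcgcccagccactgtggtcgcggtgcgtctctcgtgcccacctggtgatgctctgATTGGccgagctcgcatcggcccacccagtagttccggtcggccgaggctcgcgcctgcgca
Cyp51: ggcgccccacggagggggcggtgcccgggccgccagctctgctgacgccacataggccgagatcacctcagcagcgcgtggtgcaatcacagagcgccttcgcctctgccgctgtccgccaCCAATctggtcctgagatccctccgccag
Tm7sf2: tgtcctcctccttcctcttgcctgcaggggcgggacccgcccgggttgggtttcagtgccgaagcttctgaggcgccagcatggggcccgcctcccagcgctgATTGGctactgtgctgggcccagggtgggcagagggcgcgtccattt
Sc4mol: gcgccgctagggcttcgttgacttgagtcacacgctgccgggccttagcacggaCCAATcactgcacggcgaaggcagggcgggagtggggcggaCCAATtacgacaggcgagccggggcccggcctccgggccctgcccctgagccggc

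Hmgcs1 held the single full match to TCACNCCAC among the members with a RefSeq promoter, 137 bases before its start. Over windows from 250 bases before to 50 bases after the start, 26 of the 31 members had a RefSeq promoter, some more than 1. Fdps, Fdft1, Sqle, Npc1 and Abcg1 had none here and were not searched. At least 1 CCAAT on either strand lay in 14 of the 15 synthesis genes searched and in 4 of 5 SREBP regulators. It lay in 2 of 2 of lysosomal export and esterification and in 0 of 4 of the LXR and efflux arm. Counted the same way, as genes with a match in any of their promoters, CCAAT lay in 41.1% and TCACNCCAC in 1.44% of all 27025 genes. Per promoter the shares were 37.4% and 1.24% of all 32851 promoters. In the stretches shown the motifs do not overlap. A match describes letters only, and bears on no binding in these samples.

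No cholesterol gene passed the test between vincristine and vehicle. In edgeR's quasi-likelihood test with Benjamini-Hochberg adjustment, 0 of the 31 had an adjusted p under 0.05, where 0.359% of all genes tested did. Below an unadjusted p of 0.05 were 3 members with lower levels, Lss, Cyp51 and Insig1, and 0 with higher levels. Those 3 are 9.68% of the members, where 3.27% of all genes were lower at that level and 8.1% higher. DESeq2 called 0 of the 31 at an adjusted p under 0.05 and 3.21% of all genes. In 7 members every vincristine library lay below every vehicle library, 22.6% of the members against 9.51% of all genes. The 7 were Hmgcs1, Idi1, Lss, Cyp51, Tm7sf2, Sc4mol and Insig1, so 6 make sterols and 1 restrains SREBP. In 3 members, Abca1, Soat1 and Ch25h, every vincristine library lay above every vehicle library, 9.68% of the members against 11.5% of all genes.

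**Figure D1:**
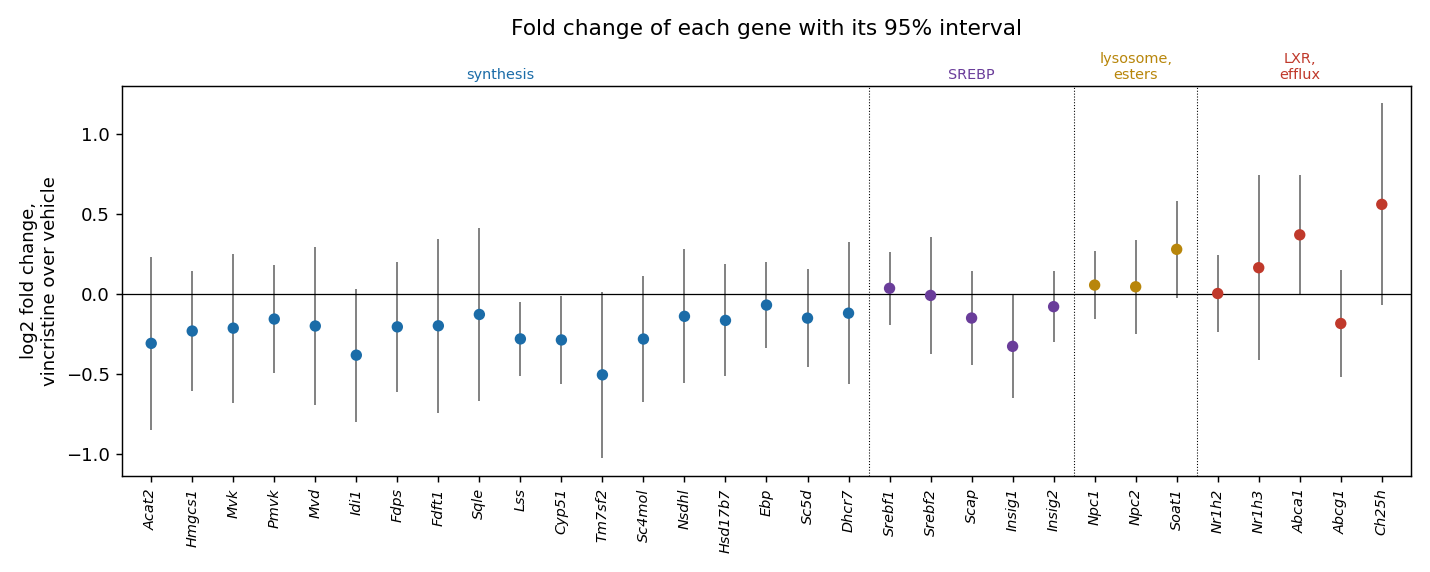
Log2 fold change of vincristine over vehicle for each of the 31 genes (points, coloured by role) with the 95% interval from edgeR (bars), in pathway order. All 18 synthesis enzymes have negative estimates, from -0.51 to -0.07, and only the intervals of Lss and Cyp51 among them lie wholly below 0.

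All 18 synthesis enzymes had a negative log2 fold change, where 50.7% of all genes tested did. Their median was -0.20 and their range ran from -0.51 to -0.07, where the median of all genes tested was -0.003. The lower synthesis estimates rested largely on vincristine replicate 1. The median of the synthesis genes against the vehicle mean was -0.60 in that library, and -0.04 and -0.05 in vincristine replicates 2 and 3. It was the lowest of the 6 libraries for 17 of the 18 enzymes, Lss being the exception, and for 36.8% of all genes tested. Without it, 12 of the 18 estimates were negative, as were 50.1% of those of all genes tested, and the median of the 18 was -0.05. The summed synthesis level was 2582, 2556 and 2438 CPM in vehicle and 1777, 2391 and 2323 CPM with vincristine, that is, 0.70, 0.95 and 0.92 of the vehicle mean. Sensory neuron markers summed to 0.38, 0.81 and 0.97 of their vehicle mean in the same 3 libraries, and myelinating Schwann cell markers to 1.13, 1.11 and 0.81. Whether the neuron share bears on the synthesis genes was not tested.

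**Figure D2:**
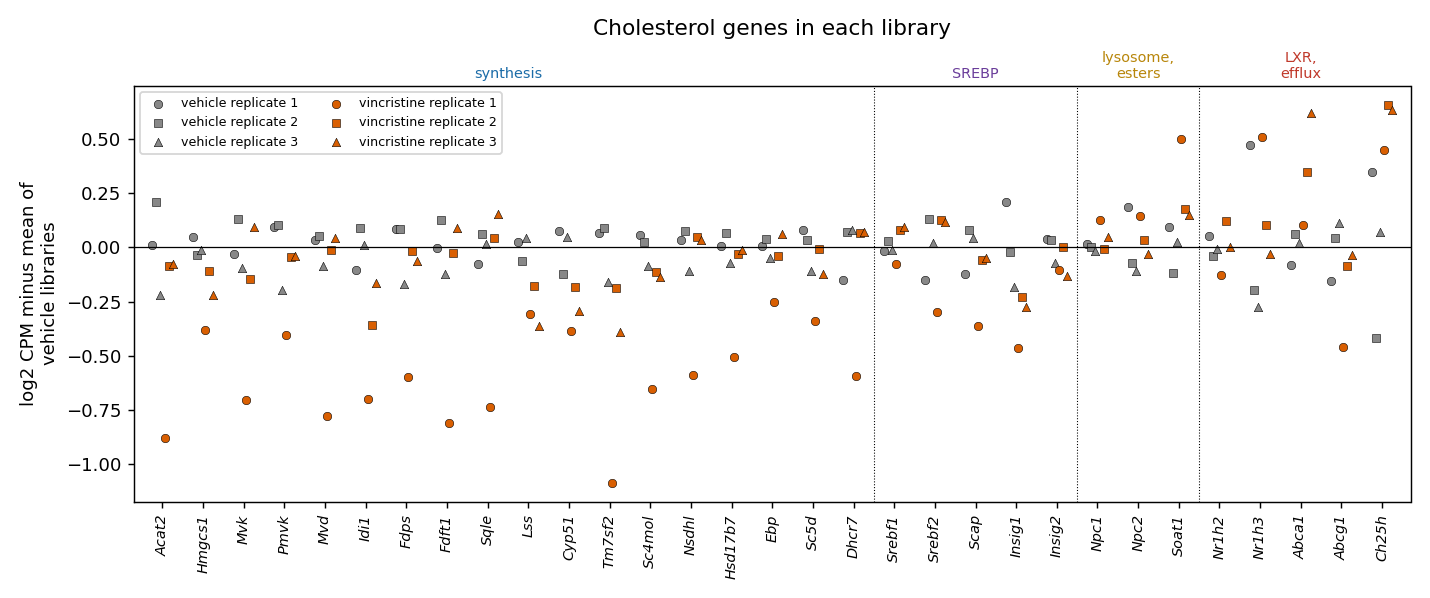
Each gene's log2 CPM in each of the 6 libraries minus the mean of the vehicle libraries (grey, vehicle; orange, vincristine; the symbol marks the replicate). Vincristine replicate 1 (orange circles) is the lowest point for 17 of 18 synthesis enzymes, while the other 2 vincristine libraries mostly lie near the vehicle points.

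The enzymes that lead from acetyl-CoA to farnesyl diphosphate open the pathway. Hmgcs1, the HMG-CoA synthase gene, was at 999, 943 and 959.6 CPM in the vehicle libraries and at 742, 898 and 831 CPM in the vincristine libraries. The groups did not overlap, and the lowest value was again in vincristine replicate 1. Its log2 fold change was -0.23 ± 0.16 (SE), with a 95% interval from -0.60 to 0.14 (edgeR adjusted p = 0.628). Idi1, which isomerises isopentenyl diphosphate, was at 7.84, 8.96 and 8.50 CPM in vehicle and 5.19, 6.58 and 7.52 CPM with vincristine, a log2 fold change of -0.38 ± 0.18 (edgeR adjusted p = 0.477). The Idi1 libraries held 67 to 195 reads each. Idi1 shares 684 transcript bases at 100% identity with the processed pseudogene Gm13502, so reads that fit both may not have been counted and its level is uncertain.

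The other 5 genes of this stretch overlapped between groups. Acat2, a thiolase that joins acetyl-CoA units, averaged 99.8 ± 14.9 CPM in vehicle and 80.5 ± 23.0 CPM with vincristine (SD, n = 3 each). It is 97.7% identical to Acat3 over 1477 bases, so its count is uncertain as well. The kinase genes Mvk and Pmvk had log2 fold changes of -0.21 ± 0.20 and -0.16 ± 0.14, and the decarboxylase gene Mvd of -0.20 ± 0.21. Fdps, which makes farnesyl diphosphate and has 4 near-identical pseudogene copies, averaged 89.5 ± 8.68 CPM in vehicle and 77.6 ± 16.2 CPM with vincristine (log2 -0.21 ± 0.17). It also shares 929 bases at 100% identity with the protein-coding Gm43738, whose exons it overlaps on the same strand, so its level is uncertain. Without vincristine replicate 1 the estimates were -0.091 for Acat2, -0.023 for Mvk, -0.047 for Pmvk, 0.015 for Mvd and -0.044 for Fdps. In each of these 5 genes the SD of the vincristine libraries was above that of the vehicle libraries, and vincristine replicate 1 was lowest.

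From squalene onward the carbon is committed to sterols. Fdft1, the squalene synthase gene, averaged 154 ± 13.4 CPM in vehicle and 134 ± 40.5 CPM with vincristine, and Sqle, the squalene epoxidase gene, 192 ± 9.23 and 175 ± 52.7 CPM (SD, n = 3 each). Without vincristine replicate 1 the estimates of this pair turned positive, at log2 0.03 and 0.10. Their log2 fold changes with all 6 libraries were -0.20 ± 0.23 and -0.13 ± 0.23. Fdft1 overlaps exons of Ctsb on the other strand, and the pseudogene Gm6781 matches it at 97.4% over 1249 bases. The libraries were made with a stranded kit per the labels, but the sources used here do not state whether the counting used strand.

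Lss, the lanosterol synthase gene (chromosome 10, 76531588 to 76557138, protein-coding), was at 76.7, 72.2 and 77.7 CPM in the vehicle libraries and at 61.0, 66.7 and 58.8 CPM in the vincristine libraries. Here the vincristine libraries lay close together and replicate 3, not replicate 1, was lowest. Lss had a log2 fold change of -0.28 ± 0.10, with a 95% interval from -0.51 to -0.05 (edgeR adjusted p = 0.353), and -0.27 without vincristine replicate 1. Cyp51, the lanosterol demethylase gene (chromosome 5, 4081145 to 4104746, protein-coding), was at 172, 149 and 168 CPM in vehicle and 125, 144 and 133 CPM with vincristine. Its highest vincristine library lay just below its lowest vehicle library. The log2 fold change was -0.29 ± 0.12 (edgeR adjusted p = 0.418), and -0.24 without vincristine replicate 1. An antisense gene overlaps exons of Lss, and Akap9 overlaps exons of Cyp51 on the opposite strand, so reads of either may have been shared.

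Tm7sf2, a sterol reductase gene, had the most negative estimate of the 31 genes. It was at 55.2, 56.1 and 47.2 CPM in vehicle and at 24.9, 46.3 and 40.2 CPM with vincristine. Vincristine replicate 2 lay narrowly below the vehicle libraries, vincristine replicate 3 further below and vincristine replicate 1 far below. Its log2 fold change was -0.51 ± 0.22, with a 95% interval from -1.02 to 0.01 (edgeR adjusted p = 0.453), and -0.29 without that library. Tm7sf2 overlaps exons of Vps51 on the same strand, so reads in the shared part are ambiguous. Sc4mol, now Msmo1, the sterol methyl oxidase gene, was at 217, 212 and 196 CPM in vehicle and 132, 192 and 189 CPM with vincristine (log2 -0.28 ± 0.17, edgeR adjusted p = 0.581). Only vincristine replicate 1 lay far below the vehicle range for Sc4mol, and the estimate without it was -0.13.

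The late enzymes overlapped between groups. Nsdhl and Hsd17b7, which act beside Sc4mol in removing methyl groups, had log2 fold changes of -0.14 ± 0.18 and -0.17 ± 0.15. The sterol isomerase gene Ebp had the estimate nearest 0 of the pathway, -0.07 ± 0.11, at 28.4 ± 0.878 CPM in vehicle and 27.0 ± 2.92 CPM with vincristine (SD, n = 3 each). The sterol desaturase gene Sc5d was at -0.15 ± 0.13 and the reductase gene Dhcr7, whose enzyme yields cholesterol itself, at -0.12 ± 0.19. Without vincristine replicate 1, Nsdhl, Ebp and Dhcr7 turned to 0.04, 0.01 and 0.06, and Hsd17b7 and Sc5d were at -0.022 and -0.066.

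The estimates of the SREBP regulators other than Insig1 lay between -0.15 and 0.04. Srebf2, which encodes the SREBP that mainly drives cholesterol genes, was at 156, 189.6 and 175 CPM in vehicle and 141, 189 and 188 CPM with vincristine (log2 -0.01 ± 0.16, edgeR adjusted p = 0.990). Its groups overlapped almost fully, and the 95% interval ran from -0.38 to 0.36. Srebf1, whose product mainly drives fatty acid genes, was at 81.8 ± 1.43 CPM in vehicle and 83.8 ± 5.34 CPM with vincristine (SD, n = 3 each; log2 0.04 ± 0.10). It overlaps exons of Rai1 on the opposite strand. The escort gene Scap was at 94.4 ± 6.83 and 85.0 ± 10.1 CPM (SD, n = 3 each; log2 -0.15 ± 0.13). Without vincristine replicate 1, Srebf2, Srebf1 and Scap were at 0.12, 0.087 and -0.056.

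Insig1, which encodes a retention factor for SCAP and is itself a target of SREBP, was at 148, 126 and 113 CPM in vehicle and at 93.2, 109.5 and 106 CPM with vincristine. The groups did not overlap, though vehicle replicate 3 and vincristine replicate 2 were close. Insig1 had a log2 fold change of -0.33 ± 0.14, with a 95% interval from -0.65 to -0.01 (edgeR adjusted p = 0.430). Without vincristine replicate 1 it was -0.26. Insig2, the paralog whose product also holds SCAP back, was at 37.4 ± 1.57 CPM in vehicle and 35.4 ± 1.75 CPM with vincristine (SD, n = 3 each; log2 -0.08 ± 0.10). Insig1 spans chromosome 5 from 28071363 to 28078662 and is protein-coding.

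The Niemann-Pick genes Npc1 and Npc2, whose products release taken-up cholesterol from lysosomes, had estimates near 0. Npc2, which encodes a soluble cholesterol carrier of the lysosome, was at 159.6, 134 and 130.3 CPM in vehicle and 155, 144 and 138 CPM with vincristine (log2 0.05 ± 0.13, edgeR adjusted p = 0.919). Npc1, the membrane partner that takes cholesterol from it, was at 69.0, 68.3 and 67.5 CPM in vehicle and 74.5, 67.9 and 70.5 CPM with vincristine (log2 0.06 ± 0.09, edgeR adjusted p = 0.851). The groups overlapped for both genes, and without vincristine replicate 1 the estimates were -0.0034 for Npc2 and 0.020 for Npc1. Their 95% intervals reached 0.34 and 0.27 on the log2 scale at the upper end. Npc1 overlaps exons of Rmc1 on the opposite strand.

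Soat1, which encodes the enzyme that esterifies cholesterol for storage in droplets, was at 63.9, 55.1 and 60.8 CPM in vehicle and 84.5, 67.6 and 66.2 CPM with vincristine. The vincristine libraries were all above the vehicle libraries, and replicate 1 was the highest by far. Soat1 had a log2 fold change of 0.28 ± 0.13, with a 95% interval from -0.02 to 0.58 (edgeR adjusted p = 0.479), and 0.16 without vincristine replicate 1. Macrophage markers, a sum led by Lyz2, were in the same vincristine order at 2.60, 1.38 and 1.48 of their vehicle mean. Neutrophil markers summed to 7.13, 2.36 and 2.69 of theirs. The part of either in the Soat1 values was not tested.

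In the LXR and efflux arm the exporter Abca1 (chromosome 4, 53030787 to 53159895, protein-coding) stood at 184, 203 and 197 CPM in vehicle and at 208, 247 and 298 CPM with vincristine. All vincristine libraries were above the vehicle libraries. Vincristine replicate 1, the highest library for Soat1, was the lowest of the 3 vincristine libraries for Abca1. The mean level differed 1.29-fold, a log2 fold change of 0.37 ± 0.16 with a 95% interval from -0.003 to 0.74 (edgeR adjusted p = 0.442). Without vincristine replicate 1 the log2 fold change was 0.49 (edgeR adjusted p = 0.0880), the smallest adjusted p of any member under any of the 16 alternatives. Macrophage markers, a sum led by Lyz2, were at 2.60, 1.38 and 1.48 of their vehicle mean in vincristine replicates 1, 2 and 3. Neutrophil markers summed to 7.13, 2.36 and 2.69 of theirs. Sensory neuron markers summed to 0.38, 0.81 and 0.97 of theirs. The part of any of these cell types in the Abca1 values was not tested.

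The estimate of Abcg1, the partner exporter, had the opposite sign. Abcg1 averaged 62.5 ± 5.90 CPM in vehicle and 54.9 ± 8.34 CPM with vincristine (SD, n = 3 each; log2 -0.18 ± 0.14, edgeR adjusted p = 0.665). Its groups overlapped and its lowest library was vincristine replicate 1, without which the estimate was -0.066. The difference between the exporters was not tested.

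Among the receptors, Nr1h2 (LXR beta) was at 47.5, 44.6 and 45.5 CPM in vehicle and 42.0, 49.9 and 45.9 CPM with vincristine (log2 0.003 ± 0.10, edgeR adjusted p = 0.995). Its vincristine libraries lay on either side of the vehicle values, and the 95% interval ran from -0.24 to 0.24. Nr1h3 (LXR alpha) was at 10.7 ± 3.25 CPM in vehicle and 12.0 ± 2.43 CPM with vincristine (SD, n = 3 each; log2 0.16 ± 0.25). Replicate 1 of each group was its highest library for Nr1h3, at 14.5 and 14.8 CPM, and without vincristine replicate 1 its estimate was -0.0028. Nr1h3 overlaps exons of Gm13783 on the same strand. Ch25h, which makes an oxysterol that activates LXR and restrains SREBP, was at 1.51, 0.886 and 1.25 CPM in vehicle and 1.63, 1.88 and 1.85 CPM with vincristine. All vincristine libraries were above all vehicle libraries, but the counts were small, 17 to 27 reads in vehicle and 21 to 48 reads in vincristine. Its log2 fold change was 0.56 ± 0.27, with a 95% interval from -0.07 to 1.19 (edgeR adjusted p = 0.494).

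A ratio within a library does not depend on how libraries are scaled. Reads of Abca1 per read of Hmgcs1 were 0.184, 0.215 and 0.205 in vehicle and 0.281, 0.275 and 0.359 in vincristine. Each vincristine library had the higher ratio, vincristine replicate 1 included. This follows from the levels above, since Abca1 was higher and Hmgcs1 lower in every vincristine library than in any vehicle library. The summed reads of the 5 LXR and efflux genes per read of the 18 synthesis genes were 0.117, 0.126 and 0.131 in vehicle and 0.176, 0.154 and 0.179 in vincristine. Abca1 and Hmgcs1 are the largest parts of these sums, so the ratios are not independent of each other. These ratios were chosen after the values had been seen, so they carry no test.

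**Figure D3:**
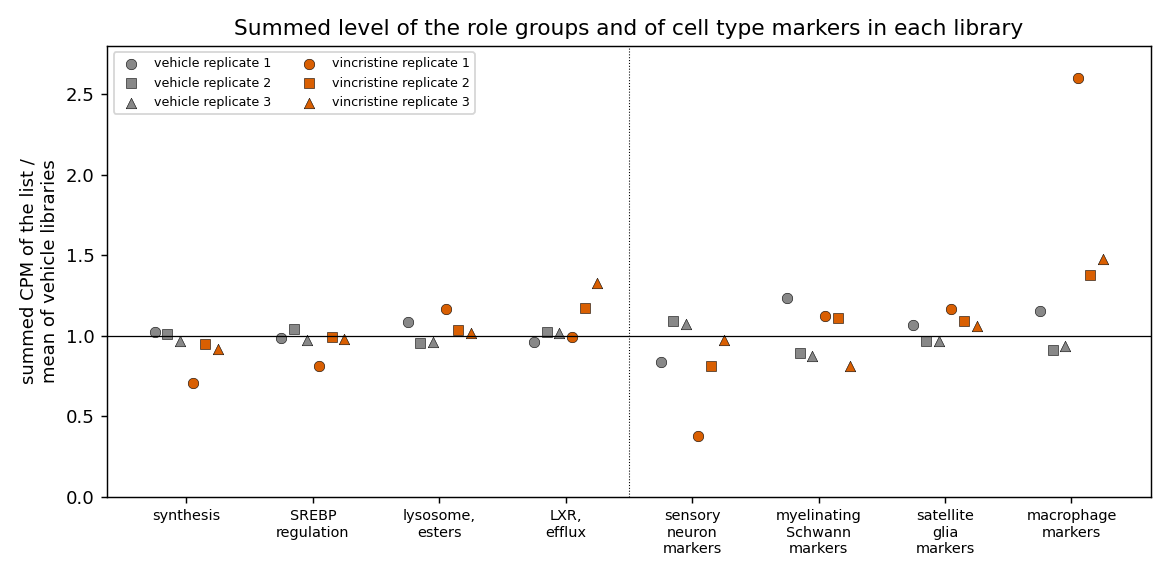
Summed CPM of each role group (left of the dotted line) and of 4 marker lists (right), per library, divided by the mean of the vehicle libraries. Synthesis is at 0.70 and sensory neuron markers at 0.38 in vincristine replicate 1. Macrophage markers, a sum led by Lyz2, are above the vehicle libraries in all 3 vincristine libraries.

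Levels between genes were compared as CPM per kilobase of exon in vehicle. Hmgcs1 was the highest at 278 ± 8.31 CPM per kb (SD, n = 3), above 99.3% of genes tested, and Sc4mol followed at 102 ± 5.29. Sqle at 69.5 ± 3.35 and Fdps at 61.6 ± 5.98 CPM per kb came next, the count of Fdps being uncertain; their libraries ran from 65.8 to 72.3 and from 54.7 to 65.1, so the neighbours were barely apart. Insig1 led the SREBP regulators at 48.0 ± 6.61 CPM per kb, above Insig2 at 12.7 ± 0.533. Npc2, at 42.8 ± 4.88 CPM per kb, stood above its partner Npc1 at 13.1 ± 0.142. Nr1h2, at 22.9 ± 0.749 CPM per kb, was above Nr1h3 at 4.98 ± 1.51, and Abca1, at 18.9 ± 0.942, above Abcg1 at 9.15 ± 0.863. Ch25h was lowest at 0.877 ± 0.227 CPM per kb, above 12.9% of genes, and Idi1 was at 2.79 ± 0.186.

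**Figure D4:**
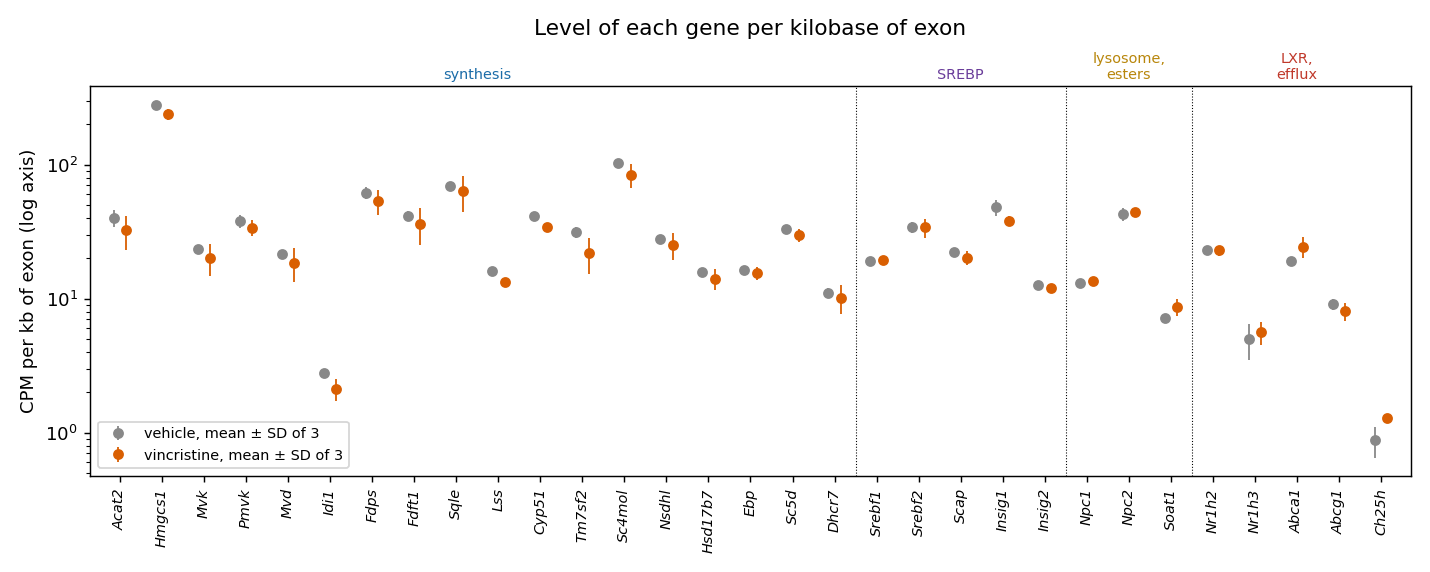
Mean CPM per kilobase of exon (log axis) with SD over 3 libraries, vehicle in grey and vincristine in orange. Levels span from 278 CPM per kb for Hmgcs1 to 0.877 for Ch25h in vehicle, and the difference between groups is small beside the differences between genes.

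Other genes of the pathway, in 6 lists, held 0 genes with an edgeR adjusted p under 0.05, where 0.359% of all genes tested passed. Of 17 genes of other synthesis steps and isoprenoid branches 16 were tested; the list median was -0.09, and below an unadjusted p of 0.05 there was 1 lower gene and 1 higher, against 3.27% and 8.1% of all genes tested. Those were Coq2, of ubiquinone synthesis, at 54.6 ± 6.00 and 43.1 ± 5.28 CPM (log2 -0.34 ± 0.13), and Lbr, a lamin receptor that is also a sterol reductase, at 63.4 ± 11.3 and 110.1 ± 53.4 CPM (log2 0.79 ± 0.32; SD, n = 3 each, vehicle before vincristine). Lbr was at 172 CPM with vincristine replicate 1 and at 77.7 and 80.8 CPM in replicates 2 and 3. Hsd17b12 followed at -0.25 ± 0.13. The 18 genes of SREBP processing and sterol-dependent degradation had a median of 0.04 and 0 members below an unadjusted p of 0.05. Those with the smallest p were Tmem97 (-0.29 ± 0.15), Erlin1 (0.18 ± 0.10) and Pgrmc1 (-0.18 ± 0.14).

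The list median was -0.07 for 19 SREBP-driven genes of fatty acid synthesis. Of these, 1 was lower at an unadjusted p under 0.05, where 3.27% of all genes tested were lower. It was Pnpla3, a lipid droplet protein, at 12.4, 12.1 and 14.4 CPM in vehicle and 5.65, 8.93 and 7.98 CPM with vincristine. Its groups were well apart, with a log2 fold change of -0.78 ± 0.19 (edgeR adjusted p = 0.198), and DESeq2 called it (DESeq2 adjusted p = 0.0202). Acsl3 and Elovl6 followed at -0.20 ± 0.09 and -0.26 ± 0.13.

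Among 18 lipoprotein receptors and uptake genes, the list median was 0.10; below an unadjusted p of 0.05 stood 5 higher genes and 0 lower, where 8.1% of all genes tested were higher and 3.27% lower. Olr1, a receptor for oxidised lipoprotein, was at 1.45 ± 0.432 CPM in vehicle and 3.91 ± 1.91 CPM with vincristine (SD, n = 3 each; log2 1.41 ± 0.40, edgeR adjusted p = 0.258), and DESeq2 called it (DESeq2 adjusted p = 0.0466). Its vincristine libraries were at 6.12, 2.77 and 2.85 CPM. In vehicle its level was near that of Ch25h, so its counts were small. Sort1, a sorting receptor, was at 0.32 ± 0.12, and the scavenger receptor gene Msr1 at 0.58 ± 0.21 on the log2 scale. The other 2 of the 5 were Cd36 (0.84 ± 0.34) and Stab1 (0.45 ± 0.18), named after their values were seen. All 5 were highest in vincristine replicate 1. So were the summed markers of macrophages, neutrophils, red cells, adipocytes, endothelium and satellite glia. Of the 5 genes, at least Msr1, Cd36 and Stab1 are known to be made by macrophages. The part of any of these cell types was not tested.

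The 28 genes of sterol transport and ester hydrolysis had a list median of 0.02. Below an unadjusted p of 0.05 stood 1 higher member and 0 lower, where 8.1% of all genes tested were higher and 3.27% lower. Soat2, the second cholesterol esterification gene, was at 1.40, 1.51 and 1.60 CPM in vehicle and 3.10, 3.50 and 3.01 CPM with vincristine. Its vincristine libraries were close together and well above vehicle, and replicate 1 was not extreme. In vehicle its level was near that of Ch25h, so its counts were small. The log2 fold change was 1.08 ± 0.20 (edgeR adjusted p = 0.108), and DESeq2 called it (DESeq2 adjusted p = 0.0155). Stard6 (0.72 ± 0.38) and Osbpl7 (0.24 ± 0.13) followed.

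Of 29 LXR targets, other efflux and oxysterol genes 27 were tested; the median was -0.01 and 2 were higher below an unadjusted p of 0.05, a share close to the 8.1% of all genes tested. Apod, a lipid carrier of nerve, was at 2245 ± 104 CPM in vehicle and 3128 ± 342 CPM with vincristine (SD, n = 3 each; log2 0.48 ± 0.19, edgeR adjusted p = 0.402), and DESeq2 called it. Tspo, of the outer mitochondrial membrane, was at 30.4, 24.9 and 19.3 CPM in vehicle and 50.6, 31.7 and 31.3 CPM with vincristine (log2 0.60 ± 0.24). Arl4c, an LXR target, was at 0.27 ± 0.12 on the log2 scale.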

How the data were processed

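RNA sequencing measured 3 vehicle and 3 vincristine samples, grouped by their titles. The authors deposited raw read counts per gene symbol, 1 table per library, made with STAR, SAMtools and HTSeq on mm10 (GRCm38), per the submitters' processing notes; the sources used here do not give versions, annotation or strand setting. Counter summary lines were left out. The members and lists were chosen with earlier results of these data known.

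The test was that of edgeR 4.0.16 (R 4.3.3), with filterByExpr (minimum count 10), TMM scaling, robust dispersions and a quasi-likelihood test of treatment, two-sided, with Benjamini-Hochberg adjustment over 16706 genes and a threshold of 0.05. This step was tested on simulated data. The SE is the log2 fold change divided by the square root of F. DESeq2 1.42.0 was run on all genes; its share is given over genes edgeR tested. Alternatives included limma-voom (limma 3.58.1), other scaling, filters and thinning. Exon lengths and positions are from GENCODE M21, of protein-coding transcripts in its basic set; 37410 symbols matched. Near-identical transcripts were sought with BLAST (95% identity, 200 bases).

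Values in every library were given for members with an unadjusted edgeR p under 0.05, a DESeq2 call or groups that did not overlap, and for the 2 with the highest level per kilobase in each role. From other lists, called genes and otherwise up to 3 with the smallest p were named.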

Additional observations from a re-analysis of the deposited data

How the results depend on the processing

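With a threshold of 0.05 on the adjusted p, 0 of the 31 cholesterol genes were called under each of the 16 alternatives, and at a threshold of 0.1 with all 6 libraries 0 were called as well. Below an unadjusted p of 0.05 there were 3 members, 3 lower and 0 higher, and this split varied. There were 6 by DESeq2 (5 lower, 1 higher), 5 by limma-voom with sample quality weights (2 lower, 3 higher), 5 with upper-quartile scaling (4 lower, 1 higher), 5 with thinned counts (3 lower, 2 higher) and 4 with the replicate block (2 lower, 2 higher). In either direction, 8.30% of the 25960 genes DESeq2 tested were below that p, and 17.2% of all genes tested with quality weights. The share of all genes tested was 11.7% with upper-quartile scaling, 11.4% with thinned counts and 15.4% with the replicate block. With a library left out there were 1 to 4: 1 higher without vehicle replicate 1, 1 lower without vehicle replicate 2, vehicle replicate 3 or vincristine replicate 3, 2 lower without vincristine replicate 2, and 3 lower and 1 higher without vincristine replicate 1. The share of all genes then ran from 6.25% without vehicle replicate 2 to 13.9% without vincristine replicate 3. It was 13.0% without vincristine replicate 1. Over all genes 60 were called, against 551 by DESeq2, 35 by limma-voom, 474 with quality weights, 99 with no filter and 125 at a threshold of 0.1. With a library left out edgeR called 0 to 346 genes: 346 without vincristine replicate 1, 6 and 18 without vincristine replicates 2 and 3, and 0 without vehicle replicate 1, 2 or 3, where 1462, 1063 and 1409 genes had an unadjusted p under 0.05. The replicate number as a block gave 261 calls over all genes and 0 among the members. Same-numbered libraries correlated at 0.43, 0.25 and -0.094 in their deviations from the group means. Differently numbered libraries correlated from -0.49 to 0.49, the highest being vehicle replicate 2 with vincristine replicate 3. The labels do not say that the numbers pair the pools, so the numbers were not taken to pair the samples.

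With a library left out, the median log2 fold change ran from 0.020 to 0.14 for lysosomal export and esterification and from 0.027 to 0.33 for LXR and efflux. Of the single genes, Mvd then ran from -0.35 to 0.015, Fdft1 from -0.38 to 0.030, Sqle from -0.30 to 0.10, Nsdhl from -0.24 to 0.038, Ebp from -0.14 to 0.011, Dhcr7 from -0.23 to 0.064, Srebf2 from -0.082 to 0.12, Npc2 from -0.012 to 0.14, Nr1h2 from -0.055 to 0.063 and Nr1h3 from -0.0028 to 0.44. With quality weights Sqle, Nsdhl, Dhcr7 and Srebf2 were at 0.014, 0.0094, 0.014 and 0.072. Nr1h2 was at -0.011 by DESeq2, -0.0052 with RLE scaling, -3.03e-05 with upper-quartile scaling and -0.013 with no filter. The cause was not tested. With 3 pools a group and 17 to 48 reads per library, Ch25h is the member most limited by depth.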
